A study of Mus musculus with 11 samples.

Results

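Hox cluster genes are the homeobox transcription factor genes that lie in the A, B, C and D clusters, here described in the hearts of mouse embryos at E9.5. A gene was a member if the array had a probe set whose single annotated symbol was Hox, a cluster letter and a paralogue number, and where a gene had several such probe sets the one with the highest mean log2 signal over all arrays stood for it. This gave 33 members among the 18193 genes with a probe set of their own, and 33 of the 39 Hox genes in the RefSeq gene table. The other 6 were not analysed here. The members were 9 genes of cluster A, 9 of cluster B, 7 of cluster C and 8 of cluster D, of which 10 had paralogue numbers 1 to 4, 9 had 5 to 8 and 14 had 9 to 13.

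RNA of pooled hearts was hybridised to 11 one-colour arrays in 3 genotype groups, all of which carry at least 1 floxed (Cre-deletable) Gata4 allele. Controls were Gata4 flox/+; Nkx2-5 +/+ (n = 3), double heterozygotes were Gata4 flox/+; Nkx2-5 cre/+ (n = 3), and the conditional knockouts, called CKO below, were Gata4 flox/flox; Nkx2-5 cre/+ (n = 5). The cre is an allele of Nkx2-5 itself, so Cre is made where Nkx2-5 is expressed and both Cre groups carry a single wild-type Nkx2-5 allele, and no group has the Cre without a floxed Gata4 allele. The study asked what GATA4, a zinc finger transcription factor of the heart, is needed for in myocardium derived from the second heart field, a progenitor population that is added to the early heart tube. The labels do not say how many embryos were pooled or whether the pools of a group came from separate litters, and p-values therefore measure the spread between these pools.

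Some facts of the arrays bear on every value below. The mean deposited intensity was 166.4 to 175.6 on 10 arrays and 117.2 on CKO replicate 3, and arrays correlated with each other at 0.954 to 0.990. All 10 heart muscle markers were above background on all 11 arrays. The targeted gene did not check the CKO label: the brighter Gata4 probe set read 8.77 to 9.09 in control hearts, 9.21 to 9.40 in double heterozygotes and 9.28 to 9.53 in the arrays labelled CKO, and the other read 7.98 to 8.15, 8.27 to 8.65 and 6.42 to 8.81. The brighter one passed the test as higher in CKO than in control (0.45, limma adjusted p = 0.0321, groups not overlapping), against the direction of the label, and the other gave 0.08 (limma adjusted p = 0.958). On that other probe set CKO replicate 2 alone read 6.42, and the remaining CKO arrays read 8.26 to 8.81, above every control. The sources used here do not place those probe sets relative to the floxed part, and CKO below means the arrays labelled so, on which every direction that names it rests. Nkx2-5 read 9.83 to 9.93 in controls, 9.37 to 9.54 in double heterozygotes and 8.78 to 9.64 in CKO pools.

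Hox proteins give cells their position along the body axis. Within a cluster the genes with low paralogue numbers lie at the 3′ end and are generally switched on earlier and further forward than those with high numbers, and retinoic acid, a vitamin A derivative, activates the 3′ genes directly. In the region of the heart, Hox genes of the first paralogue groups are known from the posterior second heart field, from neural crest cells and from the pharyngeal arches, while those with the highest numbers pattern the limb buds, the tail and the urogenital tract. Because these are bulk samples, fewer cells of a type and less RNA per cell cannot be told apart.

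The 250 bases upstream of the annotated start of 3 members show the kind of sequence in which inputs to the Hox clusters have been described. RefSeq promoters of build GRCm38.p6 were given for 19 of the 33 members, and each was searched on both strands for 3 motifs: AGATAA, bound by GATA factors; TGATNNAT, a joint site of Hox and Pbx proteins; and AGGTCA, the half-site of retinoic acid receptors. No motif overlapped another in the printed sequences. Each runs 5′ to 3′ on the gene's own strand, with the matched motif in capitals. Hoxb1 is shown for its Hox and Pbx motif, Hoxb4 for its half-site, and Hoxa5 because it had the highest log2 signal of the members. They lie at chr11:96365508-96365757 (plus strand), chr11:96318017-96318266 (plus strand) and chr6:52204588-52204837 (minus strand).
Hoxb1: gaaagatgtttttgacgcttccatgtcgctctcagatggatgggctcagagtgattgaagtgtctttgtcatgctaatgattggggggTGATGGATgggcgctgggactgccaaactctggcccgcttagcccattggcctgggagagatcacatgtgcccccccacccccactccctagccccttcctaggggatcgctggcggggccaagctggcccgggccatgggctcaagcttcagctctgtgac
Hoxb4: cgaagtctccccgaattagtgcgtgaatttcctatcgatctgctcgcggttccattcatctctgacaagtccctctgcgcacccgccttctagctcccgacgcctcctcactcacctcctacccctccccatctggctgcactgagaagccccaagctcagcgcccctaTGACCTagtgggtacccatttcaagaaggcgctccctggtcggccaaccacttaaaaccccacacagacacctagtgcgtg
Hoxa5: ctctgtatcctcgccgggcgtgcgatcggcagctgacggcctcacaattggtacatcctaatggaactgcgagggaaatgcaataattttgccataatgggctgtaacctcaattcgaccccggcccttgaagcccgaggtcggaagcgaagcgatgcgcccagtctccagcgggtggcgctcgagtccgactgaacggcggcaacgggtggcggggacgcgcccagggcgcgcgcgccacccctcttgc
The Hoxb1 motif begins 162 bases upstream of the start. The Hoxb4 half-site begins 81 bases upstream and reads as TGACCT because it lies on the other strand. The Hoxa5 window holds 0 of the 3 motifs. Among the 19 members with a promoter, 3 held TGATNNAT (Hoxa2, Hoxb1 and Hoxd11), 5 held AGGTCA (Hoxb4, Hoxc4, Hoxd3, Hoxd8 and Hoxd10) and 0 held AGATAA. Over the 32851 promoters of the table the shares were 7.68%, 14% and 9.99%. The 19 members had 21 of those promoters, and Hoxb2, Hoxb3 and Hoxb7 had none, so they were not searched. A match says that these letters are in the window, not that a factor binds there.

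Few Hox genes gave a signal above background in the E9.5 heart. The background of an array was set at the 95th percentile of 72 chemosensory receptor genes (odorant, vomeronasal and bitter taste receptors), which gave 5.13 to 5.79 on the log2 scale. Only 4 of the 33 members, Hoxb2, Hoxb4, Hoxa5 and Hoxb7, were above it on all 11 arrays. That is 12.1% of the members, against 50.6% of all genes and 1.39% of the receptor genes themselves. Hoxb3 was above on 10 arrays, among them all control and all CKO arrays, so 5 members were above on every array of at least 1 group. A further 9 members passed on 1 to 4 arrays without filling a group, and 19 passed on none.

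The members above background came from the low and middle paralogue numbers, and mostly from cluster B. Of paralogues 1 to 4, 2 of 10 were above on all arrays and 6 were on none. Of paralogues 5 to 8, 2 of 9 were above on all arrays and 4 on none, and of paralogues 9 to 13, 0 of 14 were above on all arrays and 9 on none. By cluster, 3 of 9 members of cluster B and 1 of 9 of cluster A were above on all arrays, against 0 of 7 in cluster C and 0 of 8 in cluster D. The members above on none numbered 5 in cluster B, 4 in A, 4 in C and 6 in D. These are counts of probe sets with different probes, so they order genes by whether a signal was seen and not by how much RNA there was. They also depend on the threshold: with the 99th percentile only Hoxa5, of cluster A, was above on all arrays.

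**Figure D1:**
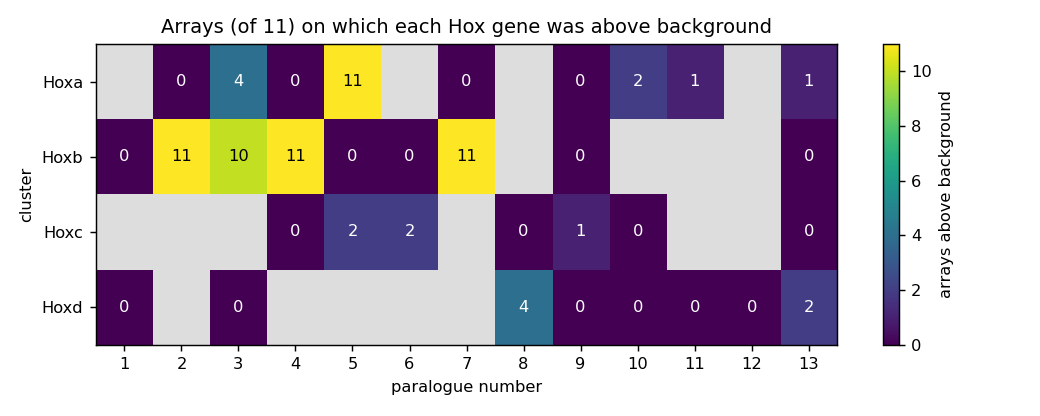
Number of arrays, of 11, on which each Hox gene was above background, with paralogue number across and cluster down, 1 cell per gene. The genes above on all arrays are Hoxb2, Hoxb4, Hoxa5 and Hoxb7, with Hoxb3 above on 10, and none of the 14 genes of paralogue groups 9 to 13 is above on all.

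Signals were low even for the members that passed. The highest intensity deposited for a member on any array was 132, and 13 of the 363 member values, in 5 genes, were deposited as 0. The distance to the threshold separates the members only in part: the lowest array of Hoxa5 lay 1.18 above it on the log2 scale and that of Hoxb2 0.60, but that of Hoxb4 lay 0.07 above and that of Hoxb7 0.05. For the 9 members that passed on some arrays without filling a group, the highest array lay from 0.06 (Hoxd13) to 0.39 (Hoxa3) above it. Of the 19 that passed on none, the highest array of Hoxb9 lay 0.06 below the threshold. That of Hoxb6 lay 0.09 below, that of Hoxb1 0.13 below and that of Hoxb5 0.15 below. The number above background therefore moved with the choice of background: it was 3 with the 99th percentile, where Hoxa5, Hoxb2 and Hoxb3 passed, and 6 with the 90th, where Hoxd8 was added. A panel of genes of other organs left 0, or 1 (Hoxa5) once Prmt and Tnpo genes, which its symbol pattern had also taken, were removed from it after the data were seen.

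Among paralogues 1 to 4, the genes of the hindbrain, the pharyngeal arches and the posterior second heart field, Hoxb2 and Hoxb4 were above background throughout and Hoxb3 nearly so. Hoxb2, which patterns the fourth rhombomere of the hindbrain and its facial motor neurons, had normalised log2 signals of 6.15, 5.99 and 6.02 in the 3 control pools, 6.23, 6.16 and 6.39 in the double heterozygotes, and 6.41, 6.37, 6.48, 6.43 and 6.56 in the CKO pools. Every CKO pool and every double heterozygous pool lay above every control pool, and CKO replicate 2 lay just below double heterozygote replicate 3. The means were 6.05 ± 0.087 (SD, n = 3), 6.26 ± 0.12 (SD, n = 3) and 6.45 ± 0.073 (SD, n = 5). On the deposited scale the order was less clean, because CKO replicate 3, the dim array, read 47.8 against 50.6 to 53.5 in the controls, while the other CKO pools read 65.6 to 86.8.

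Hoxb2 had the smallest p of the members in CKO against control, but it did not pass the test. Its log2 difference was 0.40 with a standard error of 0.12 and a 95% interval of 0.15 to 0.65, a 1.32-fold higher signal, with a limma p of 0.00422 and an adjusted p of 0.125 over all 45037 probe sets. CKO against double heterozygote gave 0.19 (interval -0.06 to 0.44, limma adjusted p = 0.56), and double heterozygote against control 0.21 (interval -0.07 to 0.49, limma adjusted p = 1). With limma's array weights the CKO to control difference was 0.44 and passed, at an adjusted p of 0.0238, in a fit that called 5.31% of all probe sets, and over the alternatives tried the adjusted p ran from 0.0238 to 0.636.

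Hoxb3, a neighbour in the same cluster with roles in the hindbrain and the pharyngeal arches, read 6.21, 6.07 and 6.14 in controls, 5.25, 6.22 and 6.23 in double heterozygotes, and 6.30, 6.13, 6.37, 6.21 and 6.21 in CKO pools. Double heterozygote replicate 1 was the only array below background, by 0.37, and the other 10 lay within a narrow band in which the groups overlap. The CKO to control difference was 0.10 (interval -0.30 to 0.51, limma adjusted p = 0.881). The double heterozygote to control difference was -0.24 (interval -0.69 to 0.22) and became 0.09 without that replicate, and the CKO to double heterozygote difference of 0.34 (interval -0.07 to 0.75) became 0.02.

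Hoxb4, a gene of the caudal hindbrain that is also known from blood stem cells, read 5.59, 5.68 and 5.60 in controls, 5.83, 5.76 and 5.90 in double heterozygotes, and 5.96, 5.51, 5.88, 5.80 and 5.65 in CKO pools. All 3 double heterozygous pools lay above the controls, while the CKO pools spread over both. Its differences were 0.13 for CKO against control (interval -0.16 to 0.43, limma adjusted p = 0.751), -0.07 for CKO against double heterozygote (interval -0.36 to 0.23) and 0.20 for double heterozygote against control (interval -0.13 to 0.53, limma adjusted p = 1). This is the gene whose promoter holds the half-site printed above.

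The other members of paralogues 1 to 4 stayed near background. Hoxa3, which shapes the third pharyngeal arch and the thymus, was above on 4 arrays, with signals of 4.96 to 5.63. Hoxb1, a retinoic acid target of the fourth rhombomere and a marker of the posterior second heart field, ranged from 4.06 to 5.14 and was above on 0 arrays, as were Hoxd1, Hoxa2, Hoxd3, Hoxa4 and Hoxc4. Hoxd1 had the smallest p in the downward direction of CKO against control: it read 4.64, 4.70 and 4.54 in controls, 5.04, 4.45 and 4.37 in double heterozygotes, and 4.43, 4.36, 4.35, 4.17 and 4.53 in CKO pools. Every CKO pool was below every control pool, by a mean of -0.26 (interval -0.60 to 0.08, limma adjusted p = 0.532), but both groups were below background and no fold is given.

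**Figure D2:**
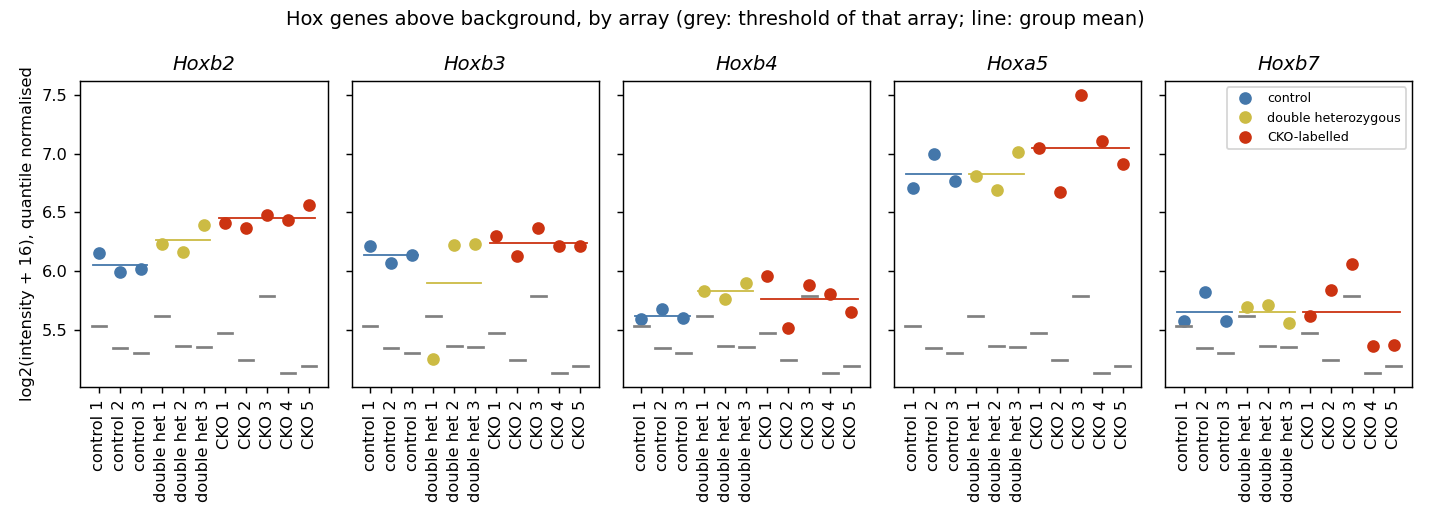
Normalised log2(intensity + 16) of the 5 members above background in at least 1 whole group, 1 point per array for the 3 control, 3 double heterozygous and 5 CKO pools, with lines at the group means and a grey bar at each array's background threshold. Hoxb2 runs from 5.99 to 6.15 in controls and from 6.37 to 6.56 in CKO pools, while the groups of Hoxb7 and Hoxa5 overlap.

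Among paralogues 5 to 8, the genes of the neck and thorax, Hoxa5 and Hoxb7 were above background on all arrays. Hoxa5, which patterns the cervical to thoracic transition and the lung, read 6.71, 7.0 and 6.77 in controls, 6.81, 6.69 and 7.01 in double heterozygotes, and 7.05, 6.67, 7.50, 7.11 and 6.91 in CKO pools. The 3 groups overlap, with the highest value on CKO replicate 3 and the lowest on CKO replicate 2. The means were 6.83 ± 0.15 (SD, n = 3), 6.83 ± 0.16 (SD, n = 3) and 7.05 ± 0.31 (SD, n = 5). CKO against control gave 0.22 (interval -0.12 to 0.57, limma adjusted p = 0.621), CKO against double heterozygote 0.21 (interval -0.13 to 0.56) and double heterozygote against control 0.01 (interval -0.38 to 0.39).

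The detection of Hoxa5 rests on 1 of its probe sets. The one used carries the suffix _x_at, given to probe sets that may cross-hybridise with other transcripts, and the other read 4.22 to 5.23 and was above background on 0 arrays. On that probe set the CKO to double heterozygote difference was -0.18. Hoxb3 and Hoxb4 also had a weaker probe set, at 4.56 to 5.47 with 0 arrays above for Hoxb3 and at 4.69 to 5.55 with 2 arrays above for Hoxb4. In all, 11 members had more than 1 probe set and the 33 genes had 48.

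**Figure D3:**
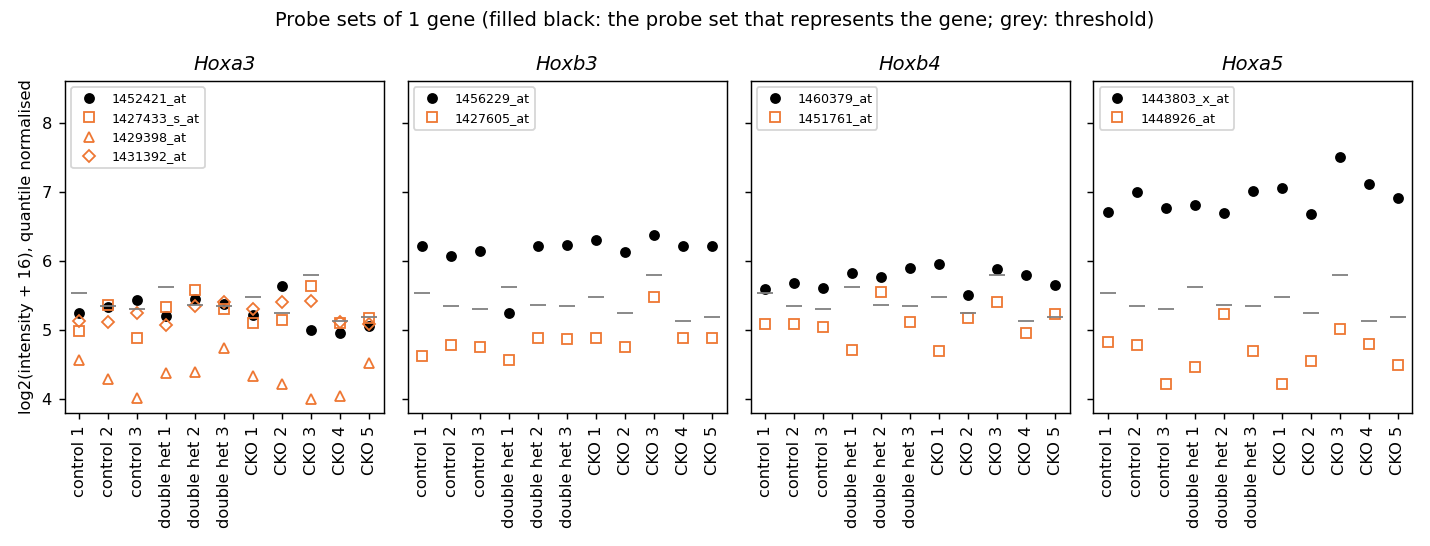
Normalised log2(intensity + 16) of every probe set of Hoxa3, Hoxb3, Hoxb4 and Hoxa5 on the 11 arrays, with the probe set that represents the gene in black, the others in orange and the array's threshold in grey. Hoxa5, Hoxb3 and Hoxb4 each have 1 probe set above the threshold on at least 10 arrays, and the other one of Hoxa5 reads 4.22 to 5.23.

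Hoxb7, a trunk gene of cluster B, read 5.57, 5.82 and 5.57 in controls, 5.69, 5.71 and 5.56 in double heterozygotes, and 5.62, 5.84, 6.06, 5.36 and 5.37 in CKO pools. The CKO pools held both the highest and the lowest values, and all 3 group means were 5.65. CKO against control was 0.00 (interval -0.37 to 0.36, limma adjusted p = 0.996). The remaining members of these paralogues were at or near background: Hoxd8 passed on 4 arrays, Hoxc5 and Hoxc6 on 2 each, and Hoxb5, Hoxb6, Hoxa7 and Hoxc8 on 0.

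Of the 14 genes with paralogue numbers 9 to 13, which act in the caudal trunk, the limbs and the urogenital tract, none was above background in any whole group. Hoxa10 and Hoxd13 passed on 2 arrays each, Hoxc9, Hoxa11 and Hoxa13 on 1 each, and the other 9 on 0. Hoxd13, a gene of the digits and genital tubercle, read 4.61, 4.84 and 4.99 in controls, 4.63, 4.47 and 4.98 in double heterozygotes, and 5.53, 4.74, 5.83, 4.87 and 4.73 in CKO pools. Its CKO to double heterozygote difference, 0.45 (interval -0.07 to 0.96, limma adjusted p = 0.487), was carried by the 2 arrays that passed, CKO replicates 1 and 3.

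Several high values of members near background fell on the dim array. CKO replicate 3 had 9 members above background, the most of any array, and gave the highest reading of Hoxc6 and Hoxc9 (5.99 each), Hoxa10 (5.96) and Hoxd13 (5.83). The other CKO arrays had 6 to 8 members above, the controls 5 to 6 and the double heterozygotes 4 to 8. The part of the lower intensity of that array in these readings was not tested. Hoxd9, with the smallest p in the downward direction of double heterozygote against control, read 4.49, 4.48 and 4.53 in controls, 4.06, 4.65 and 4.15 in double heterozygotes, and 4.35, 4.51, 4.38, 4.62 and 4.46 in CKO pools. It was above background on 0 arrays, and the difference was -0.21 (limma adjusted p = 1).

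No Hox gene passed the test in any comparison. The count of members at a limma adjusted p under 0.05 was 0 of 33 in CKO against control, where 1.4% of all probe sets passed (0.837% higher and 0.566% lower), 0 in CKO against double heterozygote, where 0.349% passed (0.286% higher and 0.0622% lower), 0 in double heterozygote against control, where 0% passed, and 0 in the F-test over the 3 groups, where 0.961% passed. At an unadjusted p under 0.05 the counts were 1 (Hoxb2), 0, 0 and 1, against 13.2%, 12%, 3.19% and 11.7% of all probe sets. At the adjusted background rates a set of 33 would hold few calls or none, and nothing particular to the Hox genes is read from the count of 0. A one-way analysis without moderation also called 0.

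The members' differences centred near 0 in every comparison. Their medians were 0.04 for CKO against control, 0.04 for CKO against double heterozygote and 0.01 for double heterozygote against control, beside -0.01, -0.01 and 0 over all probe sets, and in each 18 member means were higher and 15 lower. Single members ran from -0.26 to 0.40, from -0.25 to 0.45 and from -0.29 to 0.25, and 23, 24 and 25 of the 33 lay within 0.2 of 0. The median half-width of a member's 95% interval was 0.36, 0.36 and 0.40, and 0 of the 33 intervals reached a difference of 1, a 2-fold change on this scale, in any comparison. For the 28 members that were not above background in a whole group this bounds the signal and not the RNA, since a change below background would not show.

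**Figure D4:**
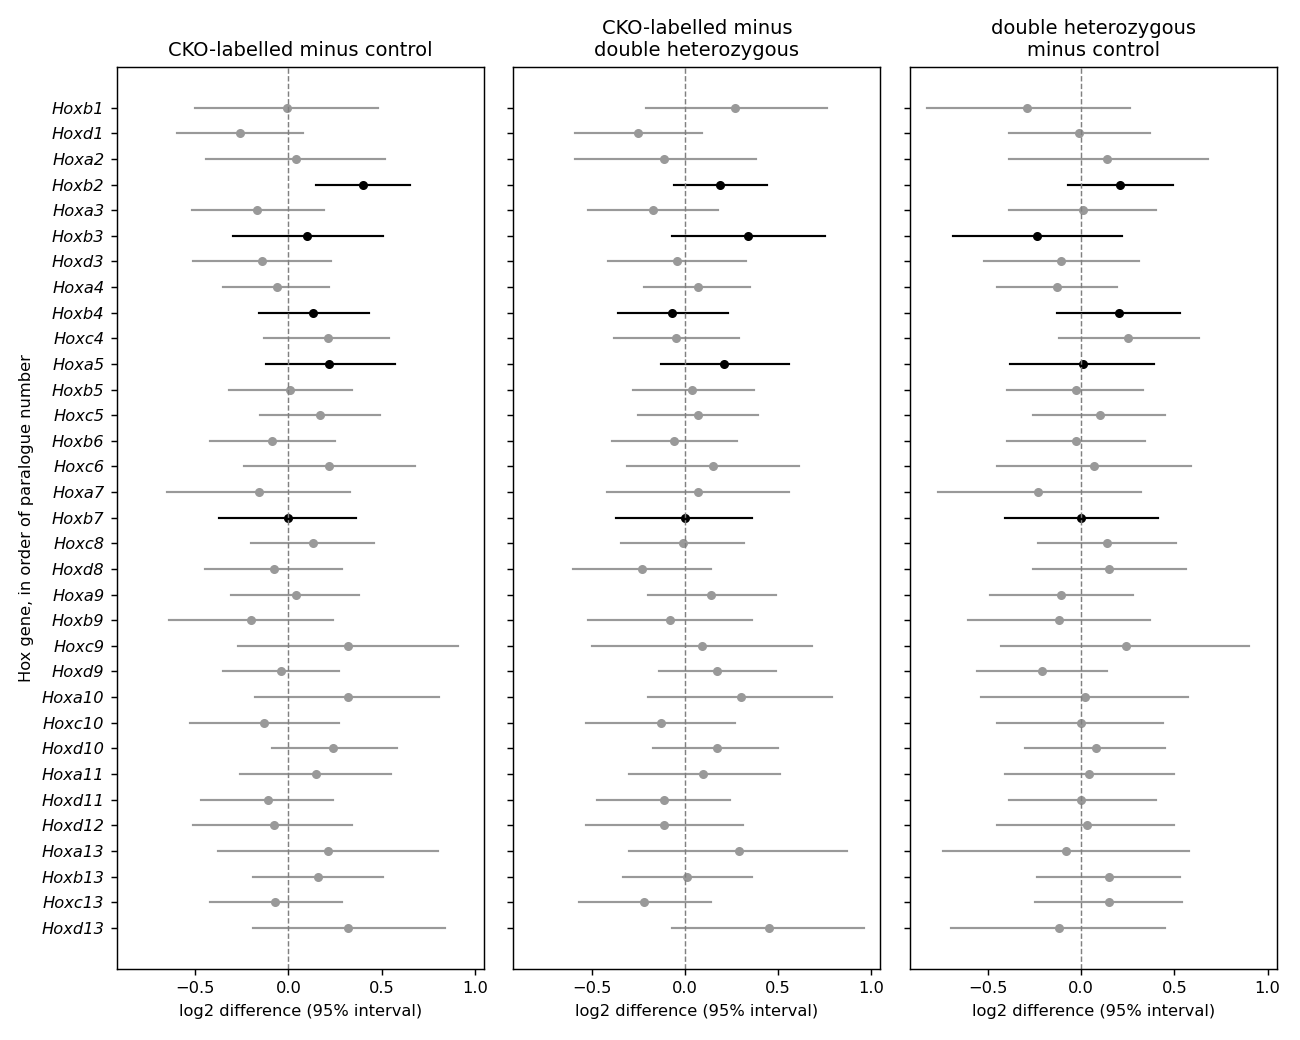
Log2 differences of the 33 Hox genes in the 3 comparisons, in paralogue order from top to bottom, with 95% intervals from limma and the 5 members above background in a whole group in black. The medians lie at 0.04, 0.04 and 0.01, and the interval of Hoxb2 in CKO against control, 0.15 to 0.65, is the one that leaves out 0.

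Few members had groups that did not overlap. In CKO against control Hoxb2 was higher in every CKO pool and Hoxd1 lower, 1 gene each way of 33, against 4.7% of genes higher and 7.55% lower. In double heterozygote against control Hoxb2 and Hoxb4 were higher in every double heterozygous pool, against 4.89% of genes, and 0 members were lower, against 6.22%. In CKO against double heterozygote the count was 0, against 9.19% of genes in either direction (3.65% higher and 5.54% lower). The comparisons with control share its 3 arrays, so the Hoxb2 values in them are not separate evidence.

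Transcripts of the TALE homeodomain proteins, which bind DNA together with Hox proteins, were mostly above background. Of the 9 listed cofactors 8 were measured and 6 were above background on all arrays. None passed the test in CKO against control (0 of 8), although 7 of the 8 means were higher, with a median of 0.12. Pbx3 differed by 0.22 (limma adjusted p = 0.284), Meis2 by 0.18 (0.487) and Pbx2 by 0.12 (0.71).

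Chromatin regulators of the Hox clusters were also detected and also did not pass. Of 19 Polycomb and Trithorax genes, which hold Hox clusters silent or active, 18 were measured, 17 were above background on all arrays and 0 were called, with a median of 0.00 in CKO against control. Jarid2, a Polycomb partner with a known role in heart development, differed by 0.61 (limma adjusted p = 0.0645), Kmt2d by 0.28 and Cbx2 by -0.22. Of the caudal and trunk genes that act upstream of the Hox clusters, such as Cdx4 and Fgf8, 7 were measured. Of these, 0 were above background on all arrays, 4 on none, and 0 were called. Their median was -0.04, with Fgf8 at 0.52 (limma adjusted p = 0.202), Gdf11 at -0.17 and Cdx4, deposited as 0 on 3 arrays, at -0.14. Fgf8 was above background on 3 CKO arrays, 0 control arrays and 0 double heterozygous arrays, and Wnt3a on 7 arrays. Of 12 other homeobox genes, relatives such as Meox1, Evx1 and Gbx1, 10 were above background on 0 arrays and 0 were called, with a median of 0.03 and differences of 0.27, 0.21 and -0.20 for those 3.

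Retinoic acid genes were the one listed input to the Hox clusters with calls, and the calls went in both directions. Of 18 listed genes 16 were measured, and 2 rose and 1 fell in CKO against control, with a median of 0.03. In that comparison 1.4% of all probe sets passed. The bearing of these genes on the Hox genes was not tested. Cyp26a1, an enzyme that breaks retinoic acid down, read 4.62, 5.06 and 4.98 in controls, 5.16, 4.72 and 5.14 in double heterozygotes, and 6.30, 6.08, 6.24, 6.0 and 6.21 in CKO pools. It was above background on all 5 CKO arrays and on 0 of the 3 control arrays, so the signal was at least 1.71-fold higher in CKO than in control and at least 1.65-fold higher than in double heterozygotes, with the background thresholds of the dimmer group's arrays, rather than its own readings, taken as its level. The fitted differences were 1.28 (limma adjusted p = 0.000669) and 1.16 (limma adjusted p = 0.00453), and the first ran from 0.63 to 2 with the offset.

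Cyp26b1, an enzyme of the same family, read 6.16, 5.94 and 6.27 in controls, 6.51, 6.32 and 6.52 in double heterozygotes, and 6.45, 6.98, 6.62, 7.06 and 6.93 in CKO pools. Every CKO pool lay above every control pool, and the difference was 0.68 with a standard error of 0.15, 1.61-fold, at a limma adjusted p of 0.0383. It missed the threshold in 13 of 23 alternatives, which include leaving out control replicate 1 (0.70), 2 (0.59) or 3 (0.76), double heterozygote replicate 1 (0.68), 2 (0.68) or 3 (0.69), and CKO replicate 4 (0.63) or 5 (0.66).

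Aldh1a1, an enzyme that makes retinoic acid, read 6.10, 6.09 and 6.23 in controls, 4.63, 5.36 and 4.79 in double heterozygotes, and 4.07, 4.02, 4.02, 5.44 and 4.23 in CKO pools. The controls lay above every other pool, and only CKO replicate 4 among the 5 CKO arrays was above background. Aldh1a1 passed the test in CKO against control, with a fitted difference of -1.78 (limma adjusted p = 0.00457). As most CKO readings are at background, that size depends on the offset, from -4.19 with an offset of 1 to -0.77 with an offset of 64. Against double heterozygotes the control signal was at least 1.62-fold higher, a difference that did not pass the test (limma adjusted p = 1). A pair of genes outside the naming rule, chosen after their values were seen, show the main synthesis enzyme and a receptor: Aldh1a2 differed by -0.32 (limma adjusted p = 0.592) and Rarb, itself a retinoic acid target, by 0.06 (0.921) in CKO against control.

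**Figure D5:**
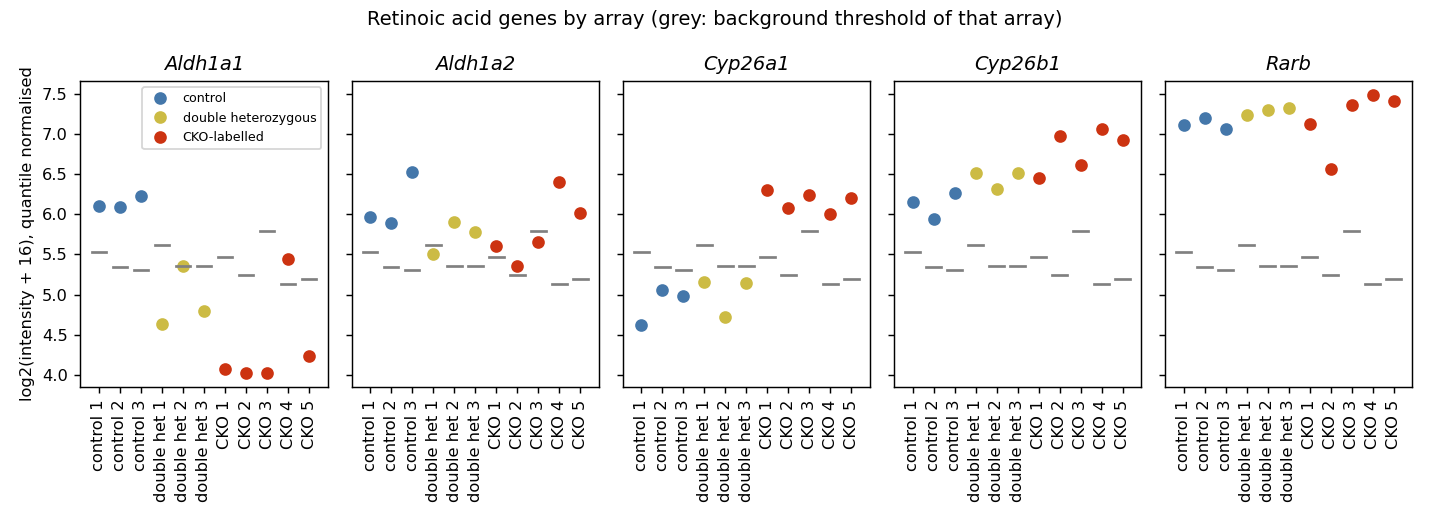
Normalised log2 signal of Aldh1a1, Aldh1a2, Cyp26a1, Cyp26b1 and Rarb, 1 point per array in the 3 groups, with a grey bar at each array's background threshold. Cyp26a1 runs from 6.0 to 6.30 in CKO pools against 4.62 to 5.06 in controls, and Aldh1a1 from 4.02 to 5.44 against 6.09 to 6.23.

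Pooled E9.5 hearts can carry tissue in which Hox genes are strong, so markers of those tissues are given beside the Hoxb2 values. Of 11 measured hindbrain and neural tube markers 0 were above background on all arrays and 6 on none, and their summed log2 signals were 53.0 to 53.8 in controls, 52.1 to 53.0 in double heterozygotes and 52.0 to 53.5 in CKO pools. Sox1 was deposited as 0 on 1 array and Neurog2 on 3. Tubb3 differed by -0.51, Neurog2 by 0.28 and Elavl3 by 0.11 in CKO against control, and 0 were called. Sox3 was above background on 10 arrays and Elavl3 on 9, among them all control and all CKO arrays for both. Tubb3 was above on 6, and Sox2 and Pax6 on 2 each. The sum thus mixes detected and background signal, and the part of neural tissue in the Hoxb2 values was not tested.

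Neural crest markers gave sums of 46.4 to 47.2, 45.4 to 48.6 and 46.1 to 49.7 in the same order, with 2 of 8 above background on all arrays. Erbb3, a neuregulin receptor of crest and other cells, fell by 0.78 (limma adjusted p = 0.0171), a call lost without control replicate 2 (-0.82) or 3 (-0.62). It was the only call of this list, in which 5 of the 8 means were higher in CKO than in control, with a median of 0.21. The endoderm sum was 57.7 to 59.2 in controls, 57.8 to 61.4 in double heterozygotes and 59.3 to 63.5 in CKO pools, with 3 of 10 above on all arrays and Foxa1 and Foxa2 each deposited as 0 on 1 array. Of this list the simple epithelial keratins Krt8 (0.71, limma adjusted p = 0.00255) and Krt18 (0.85, limma adjusted p = 0.00082) rose in CKO against control, and Krt8 rose in CKO against double heterozygote (0.53, limma adjusted p = 0.0394), a call lost without any 1 of the 3 controls (0.53 each), without double heterozygote replicate 1 (0.48) or 2 (0.49) and without CKO replicate 5 (0.48). Foxa1 (-0.01), Foxa2 (0.06), Nkx2-1 (-0.08) and Pax9 (-0.33), transcription factors of pharyngeal and foregut endoderm, were above background on 0 arrays. The part of this list in the Hoxb2 values was not tested.

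Mesodermal tissue gave mixed values. Somite sums were 41.4 to 42.2, 41.5 to 43.0 and 41.5 to 44.0, with 2 of 8 above on all arrays, Myf5 deposited as 0 on 6 arrays, Uncx on 8 and 0 called. Lateral plate sums were 46.7 to 47.1, 46.9 to 48.9 and 46.0 to 48.2, with 2 of 8 above on all arrays and 0 called. Their smallest p belonged to Meox1 (0.27), Pax1 (0.21) and Myf5 (-0.21), and to Twist1 (-0.64), Osr1 (0.70) and Prrx1 (-0.31). Proepicardium sums were 48.9 to 49.8 in controls, 43.7 to 46.9 in double heterozygotes and 41.0 to 47.7 in CKO pools, with 5 of 7 above on all arrays. In CKO against control 2 of the 7, Tcf21 (-1.31, limma adjusted p = 0.0171) and Lrrn4 (-1.20, limma adjusted p = 0.00619), fell, and Wt1 differed by 0.23 (limma adjusted p = 0.649); the Tcf21 call was lost without control replicate 1 (-1.28), 2 (-1.31) or 3 (-1.34), and that of Lrrn4 without control replicate 2 (-1.16) or 3 (-1.12).

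The endothelial sum was 56.0 to 56.7 in controls, 56.3 to 56.7 in double heterozygotes and 57.4 to 58.6 in CKO pools, with 7 of 7 above on all arrays. Kdr (0.68, limma adjusted p = 0.00678) and Cdh5 (0.63, limma adjusted p = 0.0189) rose and Tek (-0.65, limma adjusted p = 0.0015) fell; the Kdr call was lost without control replicate 1 (0.63) or 2 (0.65), and that of Cdh5 without control replicate 1 (0.60), 2 (0.65) or 3 (0.63) or CKO replicate 5 (0.57). Kdr also rose in CKO against double heterozygote (0.68, limma adjusted p = 0.0177), a call lost without double heterozygote replicate 1 (0.62) or 2 (0.67). The erythroid sum was 53.0 to 55.5, 53.4 to 56.2 and 53.7 to 57.9, with 6 of 6 above on all arrays and 0 called (Alas2 0.52, Slc4a1 0.46, Gata1 0.24). The heart muscle sum was 125.6 to 125.9, 125.3 to 125.9 and 125.2 to 126.6, and Myh7 rose by 0.27 (limma adjusted p = 0.0154), a call lost without control replicate 1 (0.28), 2 (0.26) or 3 (0.28). The part of these lists in the Hoxb2 values was not tested either.

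Genes of the second heart field, the population in which the first Hox paralogues are known to act, gave 1 call. Of 14 listed 13 were measured, 6 were above background on all arrays, and the median in CKO against control was 0.18. Isl1, the defining transcription factor of that field, rose by 1.38 in CKO against control (limma adjusted p = 8.4e-05) and by 0.69 in CKO against double heterozygote (limma adjusted p = 0.0308), the first kept in 23 of 23 alternatives. The second was lost in 11, among them leaving out control replicate 2 (0.69), double heterozygote replicate 1 (0.69), 2 (0.63) or 3 (0.74), and CKO replicate 4 (0.68) or 5 (0.63). Of the 13 means 10 were higher in CKO than in control, among them Osr1 (0.70, limma adjusted p = 0.117). Hoxb1, the Hox gene most used as a marker of the posterior part of this field, differed by -0.01 (limma adjusted p = 0.99) in CKO against control. It was above background on 0 arrays, so its value does not show whether that part differed. In double heterozygote against control Isl1 also differed by 0.69 (interval 0.39 to 0.99, limma adjusted p = 0.687). That comparison called 0% of all probe sets, so the count of 0 calls in every one of the 15 lists follows from that and says nothing of the lists.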

How the data were processed

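Total RNA of 11 pools of E9.5 hearts was amplified, labelled and hybridised to one-colour arrays, per the labels' protocols. The authors deposited 1 table of linear intensity values for 45101 probe sets, made with PLIER per the submitters' processing notes; no source used here gives its version, the array's genome build or any further filter. Here 64 control probe sets were left out, 16 was added to each intensity, log2 was taken, and the arrays were quantile normalised because their medians spanned over 0.2. The 45037 remaining probe sets were fitted with limma 3.58.1 in R 4.3.3, with 1 mean per group, all 11 arrays, eBayes with trend and Benjamini-Hochberg adjustment over all of them, and called at an adjusted p under 0.05. A fold is 2 to the power of a difference of log2(value + 16), which shrinks the change of a dim gene. The number of arrays limits the precision. Of the probe sets, 34945 had 1 gene symbol in GEO's platform annotation, and 33 of 33 members matched the RefSeq table by Entrez ID. The fit was tested on simulated data.

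Values in every array are given for members above background on all arrays of a group and for the member with the smallest p in each direction of each comparison; the members given by ranges are the rest. From each list the called genes are named, otherwise up to 3 with the smallest p. Members and gene lists were chosen with earlier results of these data known. Replicate numbers recur across groups and were not used to pair the arrays in the main fit. Deviations of same-numbered arrays from their group means correlated at -0.056 to 0.15. Differently numbered arrays were not compared, so these values cannot decide whether same-numbered arrays belong together. Alternatives changed the offset, scaling, filter, probe set, background panel, moderation, weights and arrays used.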

Additional observations from a re-analysis of the deposited data

Results flagged for a closer look

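In the 5 CKO arrays, 13 of the 103 genes checked had 1 array further from the rest than Dixon's 95% critical value of 0.71 allows. For continuous, normally spread values chance flags about 1 in 20 groups. That rate does not hold for genes with readings at 4, the floor of this scale, such as Myf5 and Hoxd12. Of the 33 Hox genes, 5 were among them. Hoxc6 read 5.99 on CKO replicate 3 (others 4.89 to 5.16) and Hoxc9 5.99 on the same array (others 4.45 to 4.82). Hoxb6 read 4.51 (others 4.95 to 5.10) and Hoxd12 4.72 (others 4 to 4.08) on CKO replicate 2, and Hoxc4 4.13 on CKO replicate 5 (others 4.54 to 4.70). Of these, only the 2 readings on CKO replicate 3 were above background. Aldh1a1 read 5.44 on CKO replicate 4, against 4.02 to 4.23 on the others. On the same array Foxc2 read 8.47 (others 7.88 to 8.03) and Prrx2 8.45 (others 8.79 to 8.92). Sox2 read 6.13 on CKO replicate 5 (others 4 to 4.25), and Meox2 4.07 there (others 4.46 to 4.55). Sox1 read 5.22 (others 4.23 to 4.35) and Pax1 5.28 (others 4.64 to 4.76) on CKO replicate 3, the array with the lowest mean intensity. Myf5 read 4.50 on CKO replicate 1 and 4 on the others.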

How the results depend on the processing

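The count of called Hox genes was 0 in all 23 alternatives for CKO against double heterozygote, double heterozygote against control and the F-test, and in 22 of 23 for CKO against control, where array weights gave 1 (Hoxb2). Leaving out arrays in turn gave 0 to 0. The number above background in a whole group, 5 as reported, was 3 with the 99th percentile. A panel of other organs, whose pattern also took Prmt and Tnpo genes, gave 0. That panel without them, chosen after seeing the data, gave 1. The number was 5 to 6 when arrays were left out in turn. Hoxa5 reversed to -0.18 in CKO against double heterozygote when _x_at and _s_at probe sets were passed over, and Hoxb3 to 0.09 in double heterozygote against control without double heterozygote replicate 1, in a range of -0.40 to 0.09 when arrays were left out in turn. The cause was not tested. With replicate number as a block, although no pairing was shown, 0 Hox genes were called in every comparison. In that fit Hoxb2 gave 0.37 in CKO against control, where 265 probe sets were called in place of 632. The count over all probe sets was 92 without further scaling, 362 when medians were centred and 2393 with array weights, while the median over all probe sets stayed within 0.05 of 0. Leaving out dim probe sets left 7 members in the test. Most members lie near background, where signal limits what can be seen.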

Other observations

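Antisense transcripts of the Hox clusters, matched by their own symbols, were not seen above background either. Hoxa11os ranged from 4.69 to 5.27 over the 11 arrays, Hoxb5os from 4.32 to 5.20 and Hoxd3os1 from 4.52 to 5.23, each above background on 0 arrays. The differences between CKO and control were -0.24, -0.12 and 0.01, and no fold is given since both groups were at background.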
